A study of Mus musculus with 8 samples.

Results

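Biglycan (Bgn), decorin (Dcn), lumican (Lum), fibromodulin (Fmod) and osteoglycin (Ogn), which are small leucine-rich proteoglycans, and the large proteoglycan versican (Vcan) were followed in the tips of secondary alveolar septa and in whole lung of neonatal mice. Members were all probe sets whose annotation gives 1 gene symbol and that symbol is one of these 6 genes, which found 9 of the 12488 probe sets in the table, for 6 of its 8251 named genes. Bgn, Fmod and Ogn had 2 probe sets each, and Dcn, Lum and Vcan had 1 each.

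The tip group held septal tips cut by laser capture from frozen lung sections of C57/Bl6 mice at postnatal day 6, with 10000 tips collected from many mice of different litters, where the design text leaves unclear whether that number is per experiment or in all. The whole lung group held RNA from pooled whole lungs of the same strain and age. No allele or agent is named in the labels of either group. The work was done once with one set of litters (experiment 1) and once with another (experiment 2). Each RNA went onto 2 Affymetrix arrays, so 8 arrays carried 4 RNA samples, 2 per group. A second array of an RNA is a technical repeat, and n below counts RNA samples, each of which pools animals. Lung pieces hold airways, large vessels and pleura as well as septa. In tissue RNA of this kind, fewer cells of a type and less RNA per cell cannot be told apart.

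Small leucine-rich proteoglycans are secreted proteins built on a curved core of leucine-rich repeats, to which chondroitin, dermatan or keratan sulfate chains can be attached. They bind fibrillar collagen and shape how fibrils grow and pack, and several also bind growth factors of the TGF-beta family or cell surface receptors. Versican belongs to another family, the lecticans, which bind hyaluronan through their N-terminal end and carry chondroitin sulfate. In lung both families are made mainly by fibroblasts and smooth muscle cells, and they form much of the interstitial matrix around air spaces, airways and vessels.

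Bgn rose in tips at one of its probe sets, where the mean signal was 2.82-fold that of whole lung. Vcan and one probe set of Ogn were dimmer on every tip array than on any lung array without passing the test. Tip and lung arrays did not overlap for 42% of all tested probe sets. Dcn was lower in tips in experiment 1 and higher in experiment 2. Lum lay close to background on the tip arrays, and Fmod was under background on nearly all arrays of both groups. Signals of single arrays below are the deposited intensities, and group means are of scaled signals. Background is the 95th percentile, on the same array, of 19 control probe sets made for transcripts of bacteria and yeast. A difference is tips minus lung on the log2 scale, with its standard error, after an offset of 150.09 was added to each signal. Each adjusted p is from limma over the 7453 probe sets that passed a brightness filter, with 0.05 as the threshold. Of the 9 member probe sets 6 passed that filter, from 5 genes. Both probe sets of Fmod and the dimmer one of Ogn did not and have no test.

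Over the series, array medians lay between 786 and 923 in tips and between 501 and 572 in lung, and background lay between 486.5 and 1244 on tip arrays and between 314 and 568 on lung arrays. Array 2 of the tip RNA of experiment 1 had the highest background. The signal of the 3' probe set of CreX, a control transcript that the array maker's protocol adds at hybridisation, ranged from 196812 to 514837 on tip arrays and from 66912 to 89816 on lung arrays. The ratio of the 3' to the middle actin control probe set ranged from 9.23 to 12.4 on tip arrays and from 16.5 to 24.8 on lung arrays, and the ratio of the 3' to the 5' one from 23.0 to 139 on tip arrays and from 38.8 to 104 on lung arrays. The part of these differences in the results below was not tested.

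**Figure D1:**
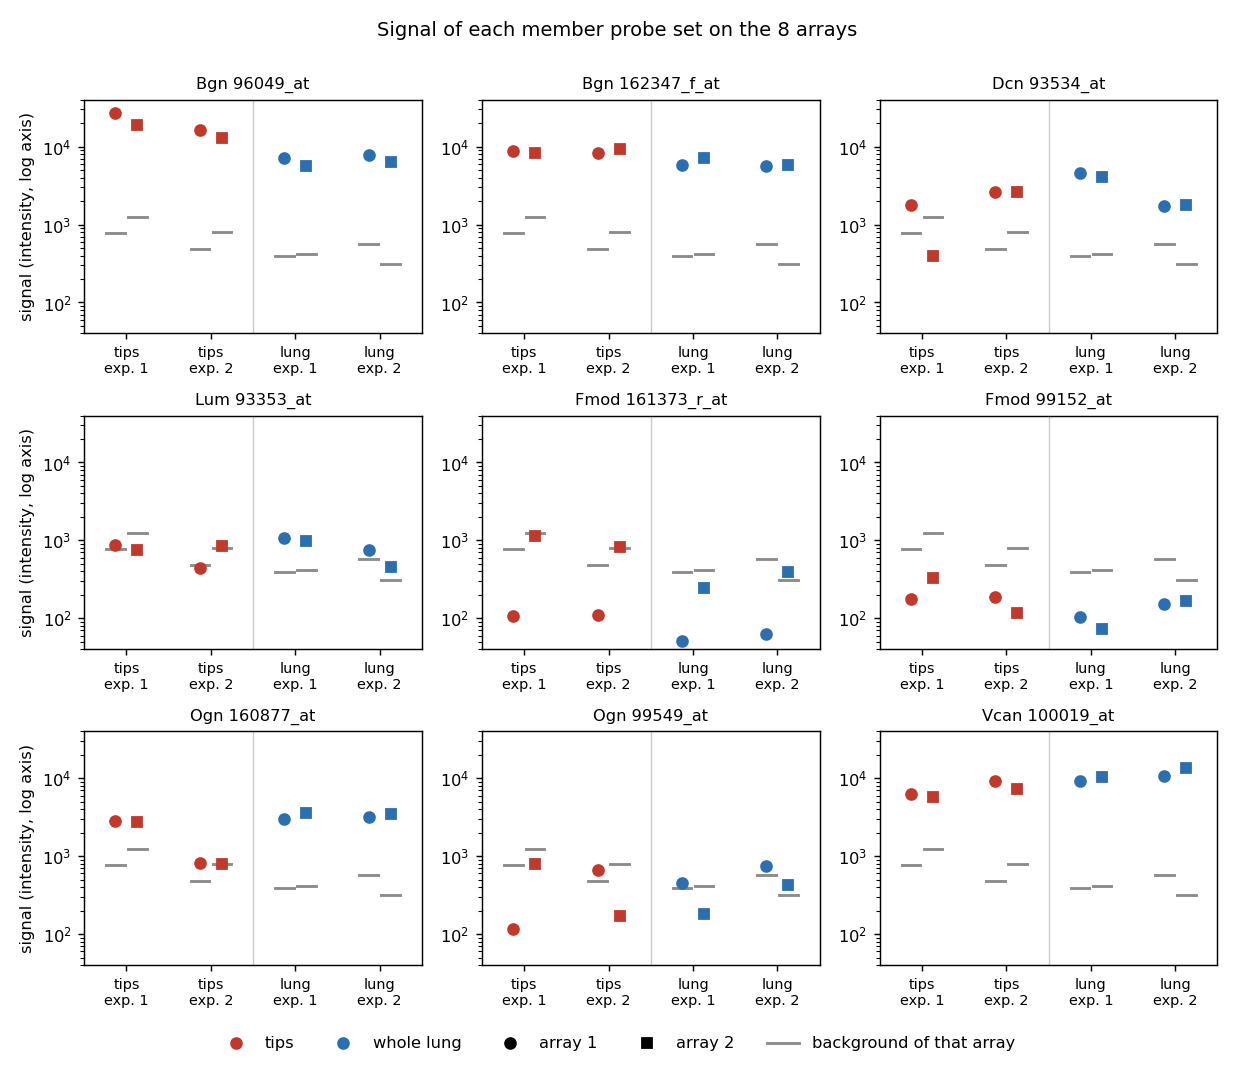
Signal (intensity, log axis) of each of the 9 member probe sets on the 8 arrays, tips in red and whole lung in blue, with circles for array 1, squares for array 2 and grey dashes for the background of each array. Bgn 96049_at is higher on the 4 tip arrays than on the 4 lung arrays, Vcan and Ogn 160877_at are lower on them, and Fmod lies at or under background on most arrays.

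Biglycan is a class I proteoglycan of the pericellular matrix, and its released form is a ligand of the Toll-like receptors Tlr2 and Tlr4. Its probe set 96049_at had a signal of 27080.5 and 18765 on the tip arrays of experiment 1 and of 16509.6 and 12988 on those of experiment 2. The lung arrays gave 7080.4 and 5672 in experiment 1 and 7725 and 6294 in experiment 2. Every tip array was above every lung array, and all 8 were above background. The mean was 18839 ± 5782 in tips and 6691 ± 448 in lung (SD, n = 2), a ratio of 2.82. The log2 difference was 1.43 ± 0.32 (95% interval 0.70 to 2.16, limma adjusted p = 0.0131), so Bgn rose in tips. Experiment 1 gave 1.81 and experiment 2 gave 1.05, with 4 of 4 array pairs higher in tips. Relative to the median of all tested probe sets, which was 0.35, it was 1.08.

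The other Bgn probe set, 162347_f_at, gave a smaller difference. Probe set names ending in f_at, like those in r_at, mark designs that can be less specific to one transcript. Its signal was 8832 and 8202 on the tip arrays of experiment 1 and 8328 and 9455 on those of experiment 2. On lung arrays it was 5886 and 7073 in experiment 1 and 5628 and 5822 in experiment 2. The groups did not overlap here either, which held for 42% of all tested probe sets. The difference was 0.51 ± 0.28 (95% interval -0.14 to 1.15, adjusted p = 0.199), with 0.39 in experiment 1 and 0.62 in experiment 2. Relative to the median of all tested probe sets, which was 0.35, the difference at 162347_f_at was 0.16. Both probe sets were thus higher on every tip array, and the test passed at 96049_at alone.

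The rise of Bgn at 96049_at passed under 16 of 19 alternative settings. These 16 include no rescaling, which hardly altered the signals (1.43). They also include the fits without the tip RNA of experiment 1 (1.12) or of experiment 2 (1.74). Each of these leaves 1 tip RNA sample, so the larger spread, that between the tip RNA samples, does not enter the fit. The rise did not pass with median centring (0.89, adjusted p = 0.0868), without the lung RNA of experiment 1 (1.36) or without that of experiment 2 (1.50). With quantile normalization and cyclic loess it was 1.96 and 2.09. The other probe set passed under these normalizations, at 0.96 (adjusted p = 0.0482) and 1.00 (0.0266), and gave -0.0355 with median centring (0.949).

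Decorin is the closest relative of biglycan, and it binds collagen fibrils and TGF-beta. Its probe set 93534_at had a signal of 1792 and 396 on the tip arrays of experiment 1 and of 2644 and 2646 on those of experiment 2. On lung arrays it had 4624 and 4103 in experiment 1 and 1735 and 1796 in experiment 2. In experiment 1 both tip arrays were below both lung arrays, and in experiment 2 both were above. The fit gave -0.79 ± 0.54 (95% interval -2.02 to 0.44, adjusted p = 0.285). The experiments gave -2.13 and 0.55, with 2 of 4 array pairs higher in tips. The arrays of the tip RNA of experiment 1 differed by 1.83 on the log2 scale for Dcn. Array 2 of that RNA lay under its background, and without it the difference was -0.33 (adjusted p = 0.616). Without the tip RNA of experiment 2 the difference was -1.51, and without that of experiment 1 it was -0.0715. Each of these leaves 1 tip RNA sample, so the spread between the tip RNA samples does not enter the fit.

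Lumican, a class II proteoglycan with keratan sulfate chains, helps to set the diameter of collagen fibrils. Its probe set 93353_at had 872 and 756.0 on the tip arrays of experiment 1 and 436 and 849 on those of experiment 2, and only 2 of the 4 tip arrays were above background. The lung arrays, all above background, had 1078 and 969 in experiment 1 and 758 and 458 in experiment 2. The groups overlapped, and the difference was -0.12 ± 0.44 (95% interval -1.10 to 0.86, adjusted p = 0.850). The direction was not the same in the experiments, at -0.28 and 0.042.

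Fibromodulin, the other class II member, binds collagen at the same region as lumican. Probe set 99152_at was under background on all 8 arrays, with signals between 115 and 324 in tips and between 72.5 and 164.5 in lung. Probe set 161373_r_at was above background on 1 tip array and 1 lung array. It had 108 and 1128 on the tip arrays of experiment 1 and 111 and 822 on those of experiment 2, and on the lung arrays 51.1 and 245 in experiment 1 and 62.1 and 397 in experiment 2. Array 2 was the brighter one for every RNA sample, while all 4 values of array 1 lay under background. Each tip array was above the lung array of the same experiment and number, and no fold is given because most values of both groups were under background.

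Osteoglycin, also called mimecan, is a class III proteoglycan that takes part in collagen fibril assembly. Its brighter probe set, 160877_at, had 2801 and 2776.5 on the tip arrays of experiment 1 and 812.5 and 801 on those of experiment 2. The lung arrays had 3040.1 and 3591 in experiment 1 and 3168 and 3511 in experiment 2. All 4 tip arrays were below all lung arrays, all 8 arrays were above background, and the arrays of each tip RNA lay close together. The tip RNA samples averaged 2789 and 807, and the lung RNA samples 3315 and 3339. The difference was -1.05 ± 0.49 (95% interval -2.15 to 0.05, adjusted p = 0.130), with -0.23 in experiment 1 and -1.86 in experiment 2. The difference passed with median centring (-1.59, adjusted p = 0.0412). It was -0.83 and -1.15 with floors at the highest and the next highest background (0.248 and 0.196). Without the tip RNA of experiment 1 it was -1.86, and without that of experiment 2 it was -0.24. Each of these leaves 1 tip RNA sample, so the spread between the tip RNA samples does not enter the fit. The experiment as a block gave an adjusted p of 0.0506.

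The dimmer Ogn probe set, 99549_at, had 116 and 799 on the tip arrays of experiment 1 and 664 and 169 on those of experiment 2. On lung arrays it had 457 and 181 in experiment 1 and 759 and 422 in experiment 2. It was above background on 1 tip array and 3 lung arrays, and the groups overlapped.

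Dcn and Ogn thus differed between the tip RNA samples in opposite directions. The tip RNA of experiment 2 had the higher Dcn signal, with a mean of 1095 in experiment 1 and 2645 in experiment 2, and the lower Ogn signal. In lung Dcn also differed between experiments, at 4363 and 1766, while Ogn lay at 3315 and 3339.

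Versican expands and loosens the pericellular matrix together with hyaluronan. Its probe set 100019_at had 6279 and 5768 on the tip arrays of experiment 1 and 9211 and 7326 on those of experiment 2. The lung arrays had 9281 and 10523 in experiment 1 and 10698 and 13554 in experiment 2. All tip arrays were below all lung arrays, although the highest tip array, at 9211, came close to the lowest lung array, at 9281. The mean was 7147 ± 1587 in tips and 11012 ± 1572 in lung (SD, n = 2), a ratio of 0.649. The difference was -0.62 ± 0.31 (95% interval -1.32 to 0.07, adjusted p = 0.151), with -0.70 in experiment 1 and -0.54 in experiment 2. All 4 array pairs were lower in tips. The size depended on the scaling of the arrays: it was -0.096 with quantile normalization, -0.049 with cyclic loess and -1.16 with median centring, which passed (adjusted p = 0.0407).

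**Figure D2:**
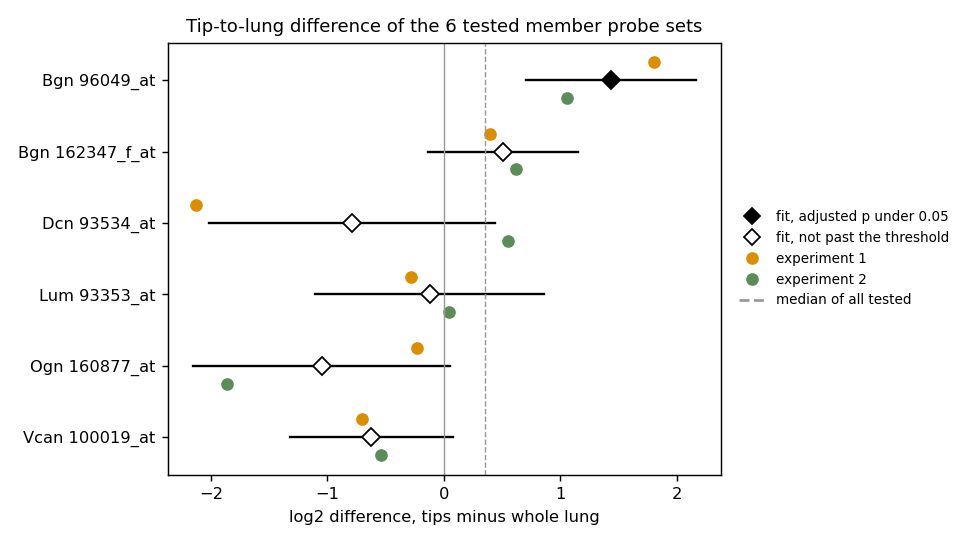
Log2 difference of tips minus whole lung for the 6 tested member probe sets, with diamonds and 95% intervals from limma (filled where adjusted p is under 0.05), circles for each experiment and a dashed line at the median of all tested probe sets, 0.35. Bgn 96049_at at 1.43 is filled, and the experiments stand on opposite sides of 0 for Dcn, at -2.13 and 0.55.

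Among the 6 tested probe sets 1 rose and 0 fell by limma. At an unadjusted p under 0.05 there was also 1, Bgn 96049_at. In the whole comparison 28.3% of the tested probe sets passed, 14.5% higher and 13.7% lower in tips. The tip and lung arrays did not overlap for 4 of the 6 probe sets, both of Bgn and those of Ogn and Vcan, while this held for 42% of all tested probe sets. The median difference of the 6 was -0.37, against 0.35 over all tested probe sets. At the brightest probe set of each gene 1 of 5 tested members passed, against 29.7% of all genes. With 6 probe sets, none of these counts is read as a property of the family. The median of all tested probe sets was 0.034 with quantile normalization, 0.055 with cyclic loess and -0.19 with median centring. Median centring gave 0 genes higher and 2 lower, Ogn and Vcan.

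**Figure D3:**
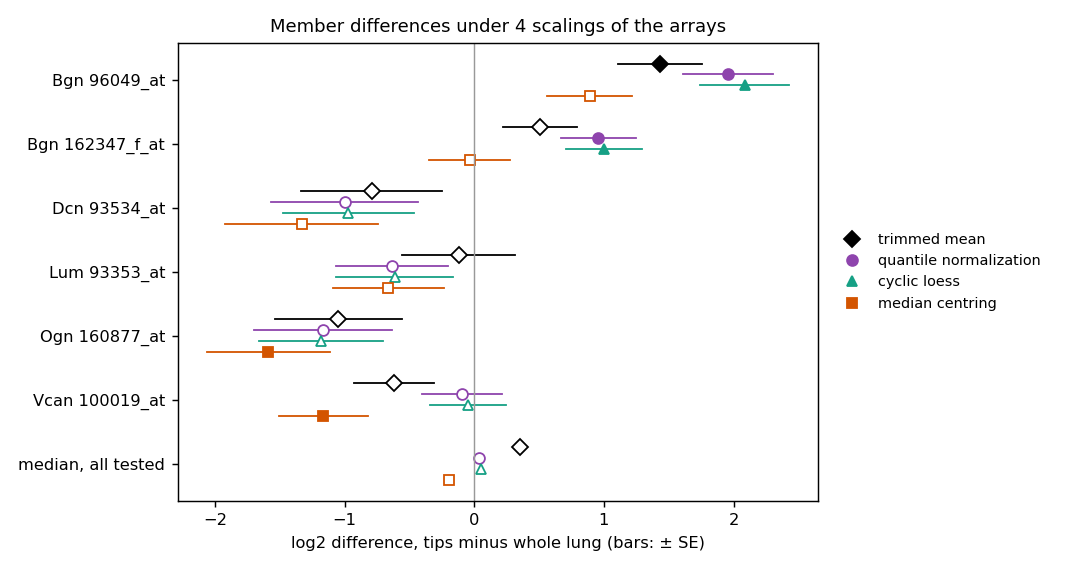
Log2 difference of tips minus whole lung (symbols, with bars for the standard error) for the 6 tested member probe sets and the median of all tested probe sets under 4 scalings of the arrays, with filled symbols where adjusted p is under 0.05. Bgn 96049_at is above 0 under each of them, from 0.89 to 2.09, and Vcan ranges from -1.16 to -0.049.

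In the RefSeq annotation of GRCm38.p6 several of these genes stand side by side, Dcn and Lum with Kera and Epyc, Ogn with Omd, Aspn and Ecm2, and Vcan with Hapln1. Of 14 further small leucine-rich proteoglycan genes 4 were on the array and 1 was tested. Chad, which encodes the cartilage protein chondroadherin, gave 0.62 ± 0.44 (adjusted p = 0.306). Epyc and Omd were under background on all 8 arrays, and Kera, the keratocan gene, was above it on 2 tip arrays and 1 lung array.

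Genes of the hyaluronan and lectican system were next. Of 21 listed genes 14 were on the array and 5 were tested, of which 1 rose and 0 fell. Among all genes at their brightest probe set 14.6% rose and 15.1% fell. Hyal2, which encodes a hyaluronidase anchored at the cell surface, rose by 2.39 ± 0.49 on the log2 scale, as are the changes of genes below, with a mean signal of 3053 ± 464 in tips and 539.7 ± 436 in lung (SD, n = 2, limma adjusted p = 0.00864). It was above background on 4 tip arrays and 2 lung arrays, and its difference was 1.28 with a floor at the highest background (0.0413). It passed under each of quantile normalization, median centring and cyclic loess, and not without the lung RNA of experiment 1 (1.68, adjusted p = 0.0896). The hyaluronan synthase gene Has2 gave 1.00 ± 0.46 (adjusted p = 0.127), the hyaluronan receptor gene Lyve1 -0.50 ± 0.32 (0.254) and the brain lectican gene Ncan -0.17 ± 0.49 (0.814). Has2 was above background on 2 tip arrays and 1 lung array, and Ncan on 2 tip arrays and 4 lung arrays. The link protein gene Hapln1, whose product ties lecticans to hyaluronan and which neighbours Vcan, was above background on 0 tip arrays and 2 lung arrays and was not tested. All 3 probe sets of the hyaluronan receptor gene Cd44 were under the filter.

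Proteoglycan sugar chains need sugar nucleotides, sulfate donors and a series of transferases. Of 37 listed genes 14 were on the array and 12 were tested, of which 3 rose and 1 fell, against 14.6% higher and 15.1% lower among all 5642 genes at their brightest probe set. Ugdh, which makes the UDP-glucuronic acid used in every chondroitin, heparan and hyaluronan chain, fell by 3.10 on the log2 scale (SE 0.33), with a mean signal of 1263 ± 223 in tips and 12167 ± 3687 in lung (SD, n = 2, limma adjusted p = 0.00105). It passed under all 19 alternatives, between -3.64 and -2.78. Chst3, a chondroitin 6-O-sulfotransferase gene, rose by 1.47 ± 0.34 (adjusted p = 0.0148), and passed under 14 of 19, but not with median centring (0.93, 0.0805) or a floor at the highest background (1.24, 0.0541). B3gat3, whose enzyme completes the linker between chain and core protein, rose by 1.68 ± 0.43 (0.0217), and Slc35b2, which carries the sulfate donor into the Golgi, by 1.06 ± 0.34 (0.0456). B3gat3 was above background on 1 of 4 lung arrays, so the size of its difference rests on signals that were mostly not above background. It was 0.21 and 0.78 with floors at the highest and the next highest background (0.232 and 0.0667). B3gat3 passed under 8 of 18 alternatives and Slc35b2 under 7 of 19. Neither passed with quantile normalization, median centring or cyclic loess.

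Of 16 genes of proteases that cut proteoglycans or their partners and of their modulators, 10 were on the array and 4 were tested. Of these 4, 2 rose and 0 fell, against 14.6% higher and 15.1% lower among all genes. Bmp1, the procollagen C-proteinase gene, whose enzyme also removes the propeptide of biglycan, rose by 2.80 ± 0.47, with a mean signal of 7091 ± 4029 in tips and 852 ± 427 in lung (SD, n = 2, limma adjusted p = 0.00426). It passed under all 19 alternatives, between 2.19 and 3.42. Its other probe set rose by 1.42 (adjusted p = 0.0160) and passed under 13 of 19. Pcolce, the enhancer of that enzyme, rose by 1.04 ± 0.32 (adjusted p = 0.0380), under 9 of 19 alternatives and under none of quantile normalization, median centring and cyclic loess. Mmp14 gave 0.81 ± 0.28 (adjusted p = 0.0599) and Timp3 -0.22 ± 0.31 (0.594). Adamts1, the versicanase gene of the list that was on the array, was under the filter.

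Of 22 matrix partner genes 20 were on the array and 19 were tested. At the brightest probe set of each gene 2 rose and 3 fell, against 14.6% higher and 15.1% lower among all genes. Tnc, which encodes tenascin-C, a ligand of lecticans, and Fbln2, which encodes a fibulin that binds versican, rose by 1.90 ± 0.36 and 1.58 ± 0.32 (adjusted p = 0.00678 and 0.00817). Col5a2, of the collagen V core of fibrils, fell by 2.02 on the log2 scale, and Col6a3, of the collagen VI microfibrils that bind biglycan and decorin, by 1.57 (adjusted p = 0.00325 and 0.00755). The third to fall was Col5a1, by 1.07 (0.0302), while its other probe set gave 0.98 (0.0478). The Tnc rise was at an f_at probe set, and the other Tnc probe set gave 0.93 (0.0685). Col6a3 did not pass with quantile normalization or cyclic loess (-0.98 and -0.92, 0.0700 and 0.0602), nor Fbln2 with median centring (1.04, 0.0539), and Col5a2 was -1.32 and -1.22 with quantile normalization and cyclic loess. Further probe sets of the fibrillar collagen genes Col1a2 and Col3a1, an r_at and an f_at one, rose by 1.29 and 1.12 (0.0122 and 0.0304). Their other tested probe sets did not pass, at 1.20 for Col1a2 (0.0518) and 0.0024 and 0.28 for Col3a1 (0.996 and 0.577). With quantile normalization 4 partners rose and 1 fell, with cyclic loess 7 and 1, and with median centring 1 and 4.

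Of 13 receptor genes 11 were on the array and 9 were tested. Of these 9, 2 rose and 0 fell, against 14.6% higher and 15.1% lower among all genes. Lrp1, an endocytic receptor that takes up decorin, rose by 1.97 ± 0.42 (limma adjusted p = 0.0105), and Egfr, which decorin can bind, passed as higher in tips (0.0363). Egfr was above background on 3 of 4 tip arrays and under it on all 4 lung arrays, and its difference was 0.26 and 0.59 with floors at the highest and the next highest background (0.309 and 0.114). Lrp1 did not pass without the lung RNA of experiment 1 (1.40, adjusted p = 0.115), and Egfr passed under 6 of 16 alternatives. Igf1r gave 0.99 ± 0.38 (adjusted p = 0.0779, or 0.0249 under the experiment block), and Itgav -0.70 ± 0.40 (0.207) and 1.00 at another probe set (0.166).

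**Figure D4:**
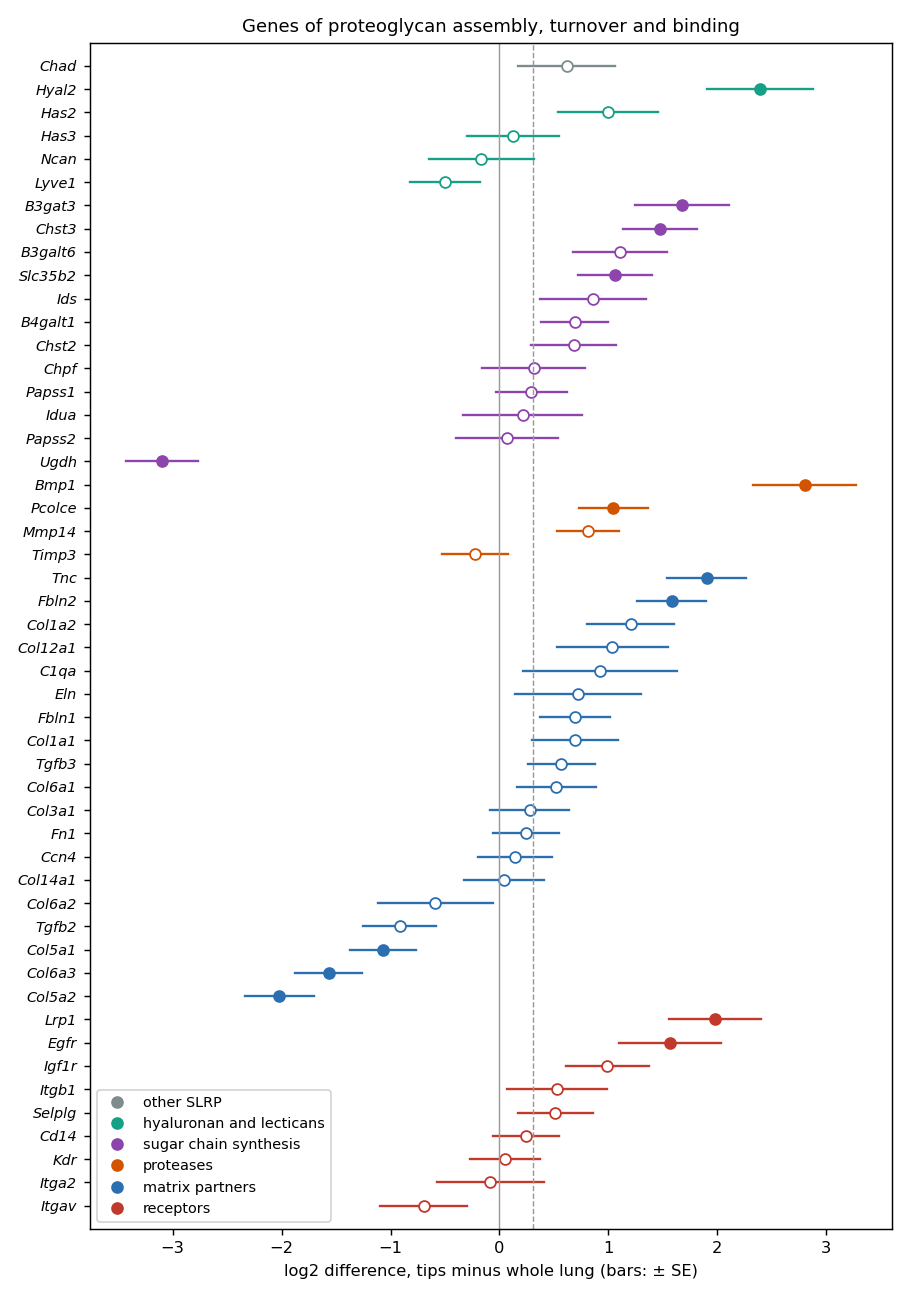
Log2 difference of tips minus whole lung (circles, with bars for the standard error) at the brightest probe set of each tested gene of 6 lists, coloured by list, with filled circles where adjusted p is under 0.05 and a dashed line at the median of all genes, 0.31. Ugdh lies lowest, at -3.10, and Bmp1 highest, at 2.80.

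Markers of the cells that tips and whole lung can hold were set beside the members. The counts of each marker list stand against 14.6% higher and 15.1% lower among all genes at their brightest probe set. The summed signal of 12 of 15 adventitial fibroblast markers on the array ranged from 25610 to 27903 on tip arrays and from 23154 to 24792 on lung arrays, and of 11 tested 1 rose, Clec3b, by 1.69 ± 0.46 (adjusted p = 0.0270). Clec3b passed under 8 of 18 alternatives and not with quantile normalization, cyclic loess or median centring (1.28, 1.20 and 1.15). Others of this list with the smallest p were Pdgfra at -0.83, with 0.38 at its other tested probe set (0.499), Cd34 at 1.04 and Serpinf1 at 1.18 (adjusted p = 0.0861, 0.0937 and 0.0953 at the brightest probe sets). The sum of 13 of 16 cartilage markers ranged from 14725 to 22966 in tips and from 10834 to 13623 in lung. Between 7 and 8 of the 13 were above background on a tip array and between 5 and 9 on a lung array. The brightest of them, Cilp2, gave -0.12 ± 0.28 (adjusted p = 0.762). Of 7 tested 1 rose, Col9a3, by 1.32 ± 0.34 (adjusted p = 0.0212), while Matn1 and Matn3 were under background on all arrays and Acan was above it on 1 tip and 1 lung array. Col9a3 passed under 14 of 19 alternatives, and not with quantile normalization (1.07, 0.0631), median centring (0.78, 0.134), array 1 alone (1.13, 0.0819) or without the lung RNA of experiment 1 (1.19, 0.183) or 2 (1.45, 0.114). Col9a1, Snorc and Col9a2 gave 1.11, 1.20 and 0.58 (0.0679, 0.0844 and 0.228).

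The sum of 6 of 10 mesothelial markers ranged from 3595 to 8011 in tips and from 2494 to 3262 in lung. Between 2 and 4 of the 6 markers were above background on a tip array and between 1 and 3 on a lung array, and the background itself was higher on most tip arrays. Of 3 tested 1 rose, Krt19 (adjusted p = 0.0165), which was above background on all 4 tip arrays and under it on all 4 lung arrays. Its difference was 0.16 and 0.42 with floors at the highest and the next highest background (0.383 and 0.297), and it passed under 9 of 15 alternatives. Upk3b gave -0.89 (0.0853) and was above background on 2 tip arrays and 4 lung arrays. It passed as lower with quantile normalization, median centring and cyclic loess (-1.25, -1.44 and -1.30, adjusted p = 0.0427, 0.0198 and 0.0241). With the floor at the highest background it was -0.0331 (0.893). Krt18 was above background on 2 tip arrays and 0 lung arrays and did not pass (0.172). The sum of 7 of 10 smooth muscle markers ranged from 36266 to 47072 in tips and from 39789 to 75633 in lung. Of the 7 markers 4 rose and 1 fell, against 14.6% higher and 15.1% lower among all genes at their brightest probe set. Acta2, with a mean of 17743 ± 3373 in tips and 17565 ± 10339 in lung (SD, n = 2), gave 0.088 (limma adjusted p = 0.89). Mylk had a mean of 5690 in tips and 30963 in lung. Tagln, Actg2 and Myh11 rose by 1.97, 1.59 and 1.32 and Mylk fell by 2.50 on the log2 scale (adjusted p = 0.00511, 0.00524, 0.0176 and 0.00508), of which Myh11 did not pass with median centring (0.77, 0.123). The Actg2 probe set was an f_at one. The sum of 4 of 7 type II cell markers ranged from 106380 to 119760 in tips and from 25577 to 41488 in lung. Most of it was Sftpc, with a mean of 102537 ± 5425 in tips and 27129.8 ± 8140 in lung (SD, n = 2), which rose by 1.95 (limma adjusted p = 0.00856). The others did not pass: Slc34a2, Sftpb and Sftpd gave 0.90, 0.69 and 0.42 (0.0990, 0.119 and 0.539). The part of these cell types in the members' differences was not tested.

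The genes most alike to each member over the 8 arrays of 4 RNA samples were taken as a description. For Bgn 96049_at they were Itgb2l and Mrpl14, with Pearson r of 0.993 and 0.988. For Dcn they were Lilr4b and Pttg1ip (0.973 and 0.966), and for Lum they were Lrba and C1qc (0.871 and 0.857). Ogn 160877_at was most like Tmem43 and Ttc39b (0.976 and 0.957), and Vcan most like Eif3j1 and Tfcp2l1 (0.977 and 0.972). No member was among those named for another.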

How the data were processed

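RNA of septal tips and of whole lung was measured on 8 Affymetrix arrays. The deposited values are 1 linear intensity for each probe set and array. Per the submitters' processing notes the authors used MAS5, with no version named. Per the labels' protocols, a PicoPure kit was used for extraction and targets carried biotin. The labels write an amplification for all tip arrays and for 1 lung array, while the design text states it for both tissues. The tip samples are described as whole lung in one label, so titles gave the groups. The genome build is not given in the sources used here.

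Signals were brought to 1 trimmed mean, 1500.9, leaving out 2% at each end. An offset of 150.09 was added and log2 was taken, so differences of dim probe sets are understated. The 66 control probe sets and those under the 40th percentile of mean log2 value were left out, which left 7453. Arrays of an RNA were averaged. The comparison of tips with lung used limma 3.58.1 under R 4.3.3 (lmFit, eBayes with trend, Benjamini-Hochberg adjustment), with 2 residual and 7.05 prior degrees of freedom. The number of RNA samples limits the precision: the median standard error was 0.40. In the platform annotation 10855 probe sets had 1 symbol, 396 several and 1237 none. Of those with 1 symbol, 10839 had a gene ID found in RefSeq's GRCm38.p6 table and took the symbol given there, whether or not it differed. The fit was tested on simulated data. Protein sequences were not used here.

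The design text gives tips and lung of an experiment shared processing, so the experiment pairs RNA samples. Their deviations from the group means correlated at 0.0452 across probe sets. The members and lists were chosen with earlier results of these data known. Named genes were all member probe sets, up to 4 genes of each list by smallest p at the brightest probe set, and the 2 genes most alike to each member. Further relatives, as well as Col5a1, Acta2 and Cilp2, were named after their values were seen. Col1a2, Col3a1, Cd44, Adamts1, Matn1 and Matn3 were also named outside these rules. Alternatives were the scaling, offset, filter, floor, block, trend, single arrays and leaving out an RNA sample. A floor at the next highest background and leaving out the array of highest background were chosen after seeing the data.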

Additional observations from a re-analysis of the deposited data

Results flagged for a closer look

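Dcn stood out because its tip-to-lung difference ran in opposite directions in the experiments. Both array pairs of experiment 1 were lower in tips, with a log2 difference of -2.13, and both of experiment 2 were higher, with 0.55. The difference between the experiments was not tested. A Dixon test of the highest and lowest of the 4 arrays marked none in the 18 groups of member probe sets. The 4 arrays are 2 pairs of technical repeats, so this test says little. For Dcn the arrays of the first experiment's tip RNA lay 1.83 apart on the log2 scale.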

How the results depend on the processing

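With 2 RNA samples per group, the count of calls moved with the setting. The total of 2106 probe sets was 860 with a floor at the highest background, 1263 with array 1 alone, and between 349 and 3324 with 1 RNA sample left out, where the group's lone sample is assumed to vary like the other group. With the experiment as a replicate block 2452 passed and no member call changed (Bgn 96049_at 1.43, adjusted p = 0.00288). The block moved Igf1r (0.99), Col9a1 (1.11) and Slc34a2 (0.90) past the threshold. The 1084 higher and 1022 lower calls were 618 and 1012 with quantile normalization, 814 and 1138 with cyclic loess, and 271 and 1512 with median centring. With an RNA sample left out, Bgn 96049_at ranged from 1.12 to 1.74, Bgn 162347_f_at from 0.42 to 0.59, Dcn from -1.51 to -0.0715, Lum from -0.45 to 0.21, Ogn 160877_at from -1.86 to -0.24 and Vcan from -0.84 to -0.40. Median centring gave 0.89 for Bgn 96049_at, -0.0355 for Bgn 162347_f_at, -1.59 for Ogn and -1.16 for Vcan. Quantile normalization and cyclic loess gave 0.96 and 1.00 for Bgn 162347_f_at. Lum was 0.21 with array 2 alone, 0.044 without the tip RNA of experiment 2 and 0.21 without the lung RNA of experiment 1. It was not tested with the floor at the highest background or the filter at the 60th percentile.

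Of the other named genes, array 2 alone gave 0.0152 for Lyve1 and 0.0179 for Ncan. Ncan was 0.0332 and 0.14 with the floors and -0.78 to 0.45 with an RNA sample left out. With quantile normalization and cyclic loess Timp3 was 0.50 and 0.54 and Itgav 0.10 and 0.13. With quantile normalization, median centring and cyclic loess Sftpd was -0.0554, -0.12 and -0.0601 and the dimmer tested Pdgfra probe set, which gave 0.38 as reported, -0.11, -0.17 and -0.0937. With an RNA sample left out Sftpd was -0.19 to 1.03. Other than where a setting tests fewer arrays or samples, the cause was not tested. Signals near background, such as those of Fmod and of Lum in tips, limit what can be measured.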

Other observations

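Fmod 161373_r_at was brighter on array 2 than on array 1 for all 4 RNA samples, with all values of array 1 and 2 of the 4 values of array 2 under background. The ratio of array 2 to array 1 ran from 4.79 to 10.5 over the RNA samples. Of 12422 probe sets, 8.77% were brighter on array 2 in all 4. For 2 of them the lowest ratio was at least 4.79, and both were under the filter. This feature was chosen after its values were seen.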
